A study of Homo sapiens with 4 samples.

Results

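Translation initiation factors are the proteins that bring the initiator tRNA, the mRNA and the ribosomal subunits together at a start codon. Genes were taken by name, as protein-coding genes whose symbol starts with EIF1, EIF2, EIF3, EIF4, EIF5 or EIF6, read by a probe set listed with that gene alone. The Y-linked EIF1AY and 1 kinase gene of the eIF2 family were left out by the same rule. This gave 47 genes of 19775 measured, each read by its brightest probe set. All RNA came from AGS, an established human gastric adenocarcinoma cell line. The control group (n = 2 arrays) kept wild-type PRMT6, and the knockout group (n = 2 arrays) had lost it. The PRMT6 protein methylates arginines, among them one in histone H3. Per the labels, the guide entered the cells with lentiCRISPR v2, infected cells were selected with puromycin, and limiting dilution gave the knockout clones. The labels do not say which clone each knockout array came from, whether the arrays of a group were separate cultures, or whether control cells carried a vector, so p-values measure only the spread between these arrays. The guide, printed 5′ to 3′ with the 10 bases next to the PAM in capitals, is shown because it made the knockout that defines the groups.
PRMT6 guide: gacggtactgGACGTGGGCG

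Initiation runs through a fixed series of complexes. eIF2 carries the initiator tRNA to the small ribosomal subunit, and eIF2B recharges eIF2 with GTP after each round. Stress kinases phosphorylate eIF2 and thereby block eIF2B, which lowers general translation and favours a few mRNAs such as ATF4. eIF4F, made of the cap-binding protein eIF4E, the helicase eIF4A and the scaffold eIF4G, recruits the mRNA, and the eIF4E-binding proteins compete with eIF4G for eIF4E. eIF3 bridges mRNA and ribosome, eIF1 and eIF1A open the scanning complex, eIF5 triggers GTP hydrolysis at the start codon, and eIF5B joins the large subunit.

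The PRMT6 transcript was read at 8.03 and 8.11 on the control arrays and 7.79 and 7.63 on the knockout arrays (log2 intensity), a fall of 0.36 (SE 0.09, adjusted p = 0.043, limma). A transcript can persist after an edit to its coding sequence, so this does not test the edit; with 1 array left out PRMT6 was not called (-0.44 to -0.28). All 7 epithelial marker genes were bright, from 9.08 to 13.30. Of the fibroblast, leukocyte and endothelial markers, 11 of 12 measured lay between 2.25 and 6.02. The exception, COL1A1, was at 8.55 and 8.60 in control and 10.18 and 10.09 in knockout cells, and the dim LUM at 2.25 and 2.52 against 3.76 and 3.74. The part of these 2 genes in the results below was not tested. In bulk RNA, a lower level in every cell and fewer cells with a high level cannot be told apart.

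Promoters in the RefSeq table of GRCh38.p14 were found for 39 of the 47 genes, and the 250 bases before each listed start were searched on both strands for 3 motifs. The endoplasmic reticulum stress element, CCAAT and CCACG with 9 free bases between them, was in 1 of the 39 genes, EIF2A, and in 0.133% of all protein-coding genes in the table. The ATF4 motif TGATGNAA was in 1 gene, EIF4E3, against 3.16% of protein-coding genes. The E-box CACGTG, which reads the same on both strands, was in 11 genes (28.2%), against 9.73% of protein-coding genes and 7.73% of all genes. Among those 11, EIF4E and EIF2AK2 rose, EIF4B fell, and 8 did not pass the test described below. The 3 promoters shown, of EIF2A, EIF4E and EIF4E3, were picked because they hold a match and their genes had larger changes. EIF4EBP1, with the largest change (-1.08), and EIF5A, with the largest rise (0.79), are not shown. Each promoter runs 5′ to 3′ on its gene's strand, with motif matches in capitals. No match overlaps another.
EIF2A (chr3:150546537-150546786, plus strand): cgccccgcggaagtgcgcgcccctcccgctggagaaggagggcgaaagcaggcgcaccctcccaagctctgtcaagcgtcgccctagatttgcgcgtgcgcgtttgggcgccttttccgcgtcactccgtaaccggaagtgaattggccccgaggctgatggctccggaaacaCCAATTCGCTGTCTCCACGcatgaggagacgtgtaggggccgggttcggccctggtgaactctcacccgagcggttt
EIF4E (chr4:98929134-98929383, minus strand): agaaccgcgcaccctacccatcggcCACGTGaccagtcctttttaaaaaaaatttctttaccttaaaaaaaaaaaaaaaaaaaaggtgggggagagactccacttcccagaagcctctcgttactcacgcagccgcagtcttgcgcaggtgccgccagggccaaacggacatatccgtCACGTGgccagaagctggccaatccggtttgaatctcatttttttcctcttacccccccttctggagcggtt
EIF4E3 (chr3:71729119-71729368, minus strand, 1 of 3 listed starts): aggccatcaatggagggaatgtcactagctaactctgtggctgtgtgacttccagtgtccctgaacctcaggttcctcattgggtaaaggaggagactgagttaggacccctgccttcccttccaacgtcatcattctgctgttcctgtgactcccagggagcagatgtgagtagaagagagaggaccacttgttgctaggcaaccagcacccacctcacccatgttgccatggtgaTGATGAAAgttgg
The match in EIF2A starts 77 bases before the listed start, those in EIF4E 225 and 72 bases before it, and that in EIF4E3 13 bases before it. A match is a description of the letters and not evidence of binding.

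In the knockout cells the initiation factor genes went both ways. EIF5A, EIF2AK4, EIF4E, EIF4E2 and the subunits of eIF2B were higher, while EIF4EBP1, EIF4E3, EIF2A and EIF5 were lower. The test was passed, with limma's adjusted p under 0.05, by 22 of the 47 genes: 14 rose and 8 fell. This is 46.8%, where 24.0% of all genes passed (12.4% rose and 11.5% fell). These genes are mostly bright: 44 of 47 lie above the median gene's level of 5.97, and 40.9% of the genes above that level passed, close to the share of the initiation factors. For 43 of the 47 genes the arrays of the groups were fully apart, against 58.2% of all genes and 79.3% of those above the median level. A change of at least 0.5 on the log2 scale with a passed test was seen for 12 of the 47 genes, 8 higher and 4 lower. Of all genes 14.8% met the same rule, and the share among the brighter genes alone was not counted. All changes ran between -1.08 and 0.79, and the median was 0.11, against -0.01 over all genes.

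**Figure D1:**
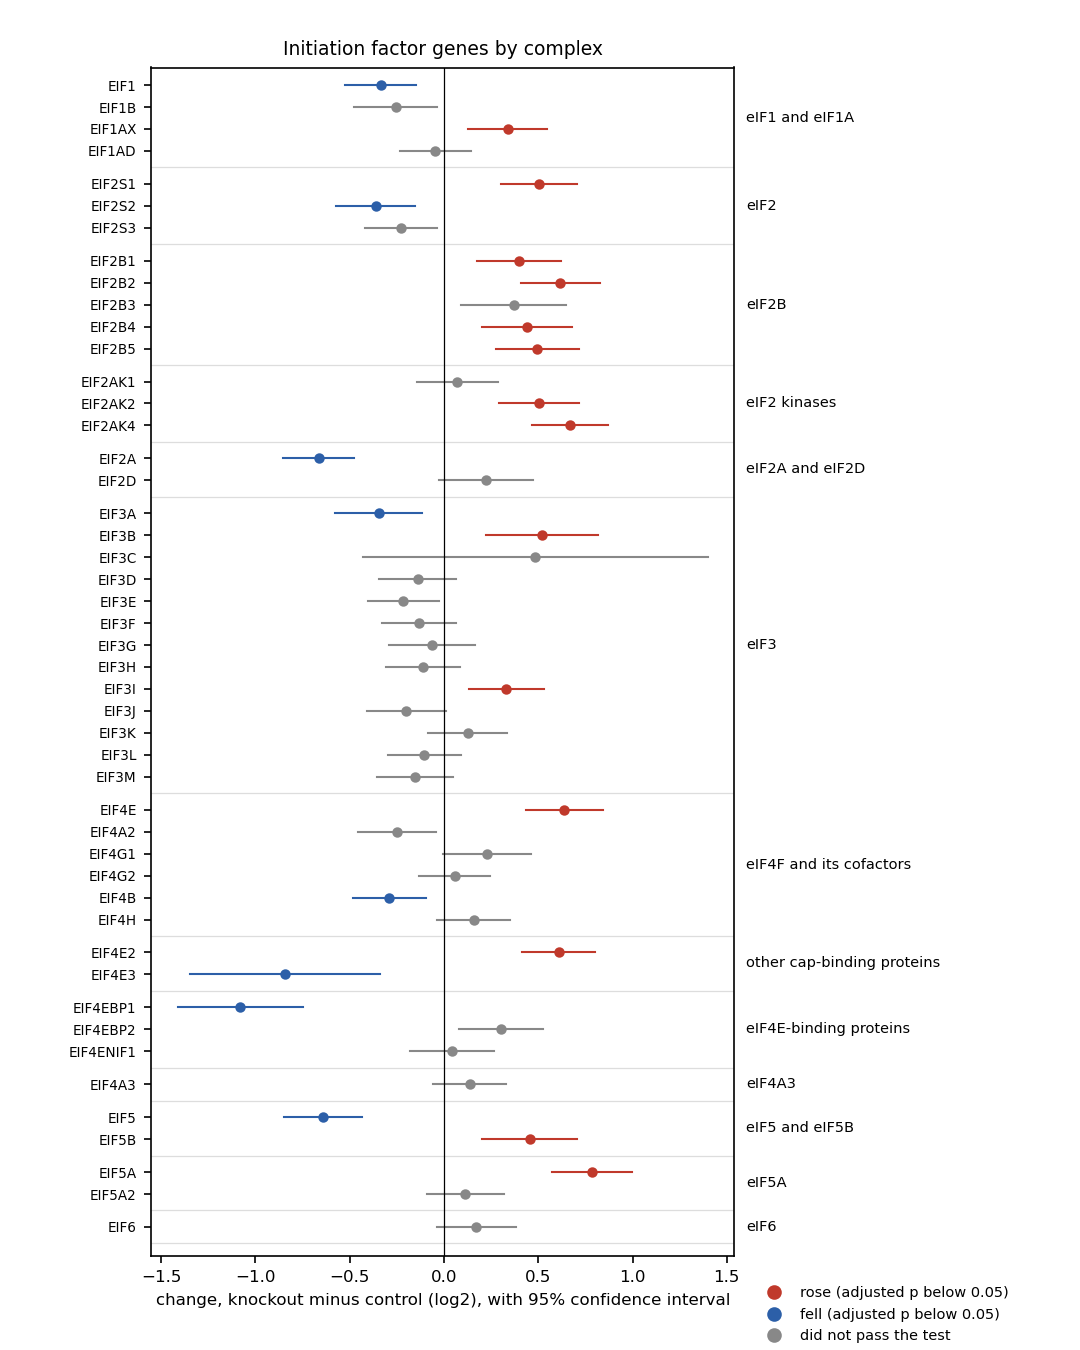
Change of each of the 47 initiation factor genes (points, knockout minus control, log2 intensity) with its 95% confidence interval (lines), grouped by complex, n = 2 arrays per group. All 5 eIF2B subunits lie to the right of 0, most eIF3 subunits lie near 0, and EIF4EBP1 is farthest to the left at -1.08.

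Counts of calls, and the direction of some genes without a call, depend on the scale and on the choice of probe set. On the deposited scale 10 reference genes were on average 0.25 higher in the knockout, with single changes spread widely, from -0.01 to 0.49. Setting the arrays to equal means of these genes lowers every gene by that average and moves the median of all genes from -0.01 to -0.26. Under it 5 of the 47 genes rose and 20 fell, where 43.0% of all genes passed. None of the 22 called genes changed sign, but 9 lost their call, all of them rises. The rises of EIF2B2, EIF2AK4, EIF4E, EIF4E2 and EIF5A were still called. Of the genes not called on the deposited scale, EIF1AD, EIF1B, EIF2S3, EIF4A2 and several eIF3 subunits, named below, were called lower. With equal medians 16 rose and 6 fell (25.3% of all genes passed), with the mean of probe sets 16 and 8 (22.3%), with gene-specific probe sets 14 and 4 (20.9%), with an intensity trend 19 and 13 (29.3%), and with a replicate block 12 and 4 (20.1%). With only genes above the median level tested, 17 of 44 rose and 11 fell, where 56.3% of those genes passed.

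Every called gene had its knockout arrays on 1 side of both control arrays. With 2 arrays per group this follows from passing the test and is no separate support for the calls. The calls rested on having 2 arrays per group. With control 1 left out, 9 of the genes were called higher and 3 lower (13.3% of all genes passed), and with control 2 left out, 5 and 3 (11.3%). Without knockout 1 the counts were 0 and 0, and without knockout 2 they were 0 and 1, in fits where the lone knockout array is assumed to vary like the controls; 21 and 18 of the 47 genes then had an unadjusted p under 0.05 in limma, against 28 with all arrays. In these 2 fits 2.88% and 2.57% of all genes passed, against 24.0% with all arrays. EIF4EBP1 kept its call in 3 of the 4 fits, EIF2A, EIF2B2, EIF2AK4, EIF4E, EIF4E2, EIF5 and EIF5A in 2 of 4.

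**Figure D2:**
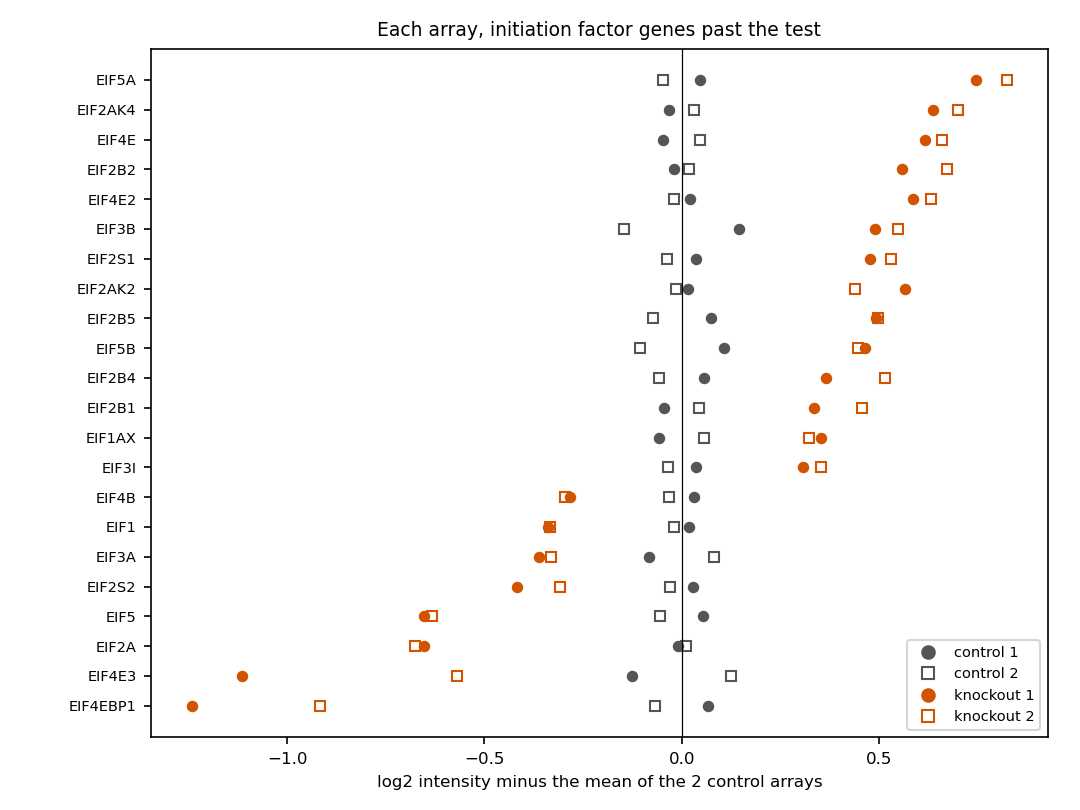
Log2 intensity on each array minus the mean of the 2 control arrays for the 22 initiation factor genes past the test, with control arrays in grey and knockout arrays in orange. Knockout arrays lie outside the control arrays for all 22 genes, which follows from passing the test. The knockout arrays differ most from each other for EIF4E3 and EIF4EBP1.

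The eIF2 complex itself was split. EIF2S1, the alpha subunit and the target of the stress kinases, was at 10.42 and 10.35 on the control arrays and 10.86 and 10.91 on the knockout arrays. Both knockout arrays were above both controls, and the gene rose by 0.50 (SE 0.08, adjusted p = 0.010, limma), or 1.42-fold. EIF2S2, the beta subunit that contacts eIF5 and eIF2B, went the other way, with a fall of 0.36 (SE 0.08, adjusted p = 0.032). EIF2S3, the gamma subunit that binds GTP and the tRNA, changed by -0.23 and did not pass the test (adjusted p = 0.091). Under reference gene scaling EIF2S3 was called lower (-0.48, adjusted p = 0.0087, limma). Gene-specific probe sets of EIF2S1 (0.24, adjusted p = 0.14) and EIF2S2 (-0.28, adjusted p = 0.11) did not make these calls, and under reference gene scaling EIF2S1 was at 0.25 (adjusted p = 0.052). All 3 probe sets of EIF2S3 were lower, and 1 of them fell by 0.35 (adjusted p = 0.044, limma over single probe sets).

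Genes of eIF2B, the exchange factor of eIF2, were higher throughout. Of its 5 subunits 4 rose, and the median change was 0.44, or 0.19 under reference gene scaling. EIF2B2, the beta subunit, was at 8.51 and 8.55 in control and 9.09 and 9.20 in knockout cells. Its rise of 0.62 (SE 0.08, adjusted p = 0.0065, limma), 1.53-fold, was the largest of the 5. EIF2B5, the catalytic epsilon subunit, rose by 0.50 (adjusted p = 0.014), and its other probe set by 0.46. EIF2B4 (delta) rose by 0.44 and EIF2B1 (alpha) by 0.40. EIF2B3, the gamma subunit, was 0.37 higher and did not pass the test (SE 0.11, adjusted p = 0.068), although its knockout arrays, at 8.63 and 8.83, lay above the controls at 8.45 and 8.27. Under reference gene scaling EIF2B2 alone kept its call (0.37, adjusted p = 0.024).

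Of 3 kinases that phosphorylate eIF2, 2 rose. EIF2AK4 encodes GCN2, which senses uncharged tRNA; it stood at 8.42 and 8.49 in control and 9.09 and 9.16 in knockout cells. The rise was 0.67 (SE 0.08, adjusted p = 0.0046, limma), or 1.59-fold, and both of its probe sets rose. EIF2AK2 encodes PKR, which senses double-stranded RNA; it went from 8.64 and 8.61 to 9.19 and 9.06. Its rise of 0.50 (SE 0.08, adjusted p = 0.012) was not called under reference gene scaling (0.25, adjusted p = 0.060). EIF2AK1, the haem-regulated kinase HRI, was at 10.32 and 10.19 in control and 10.33 and 10.32 in knockout cells. On this probe set the groups overlapped, and the difference of 0.07 has a 95% confidence interval from -0.14 to 0.29. It was -0.18 under reference gene scaling. A dimmer probe set of EIF2AK1 was 0.41 higher without overlap, at 6.18 and 5.97 against 6.44 and 6.54. That probe set did not pass the test (adjusted p = 0.058, limma over single probe sets). Averaging the probe sets of EIF2AK1 gave 0.24 (adjusted p = 0.12, limma).

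EIF2A and EIF2D can deliver initiator tRNA without eIF2 and are not parts of the eIF2 complex. EIF2A, whose promoter holds the stress element printed above, was at 11.59 and 11.61 on the control arrays and 10.94 and 10.92 on the knockout arrays. The arrays of each group nearly coincided, the groups lay far apart, and the gene fell by 0.66 (SE 0.07, adjusted p = 0.0040, limma), or 1.59-fold. EIF2D, which also recycles ribosomes, changed by 0.22, or -0.03 under reference gene scaling, and did not pass the test (adjusted p = 0.18).

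The scanning factors eIF1 and eIF1A moved apart. EIF1AX, the X-linked eIF1A gene, was at 10.55 and 10.67 in control and 10.96 and 10.93 in knockout cells, a rise of 0.34 (SE 0.08, adjusted p = 0.038, limma). All 4 of its probe sets were higher, by 0.34 to 0.45, but with reference genes setting the scale EIF1AX was at 0.09 and not called (adjusted p = 0.42). EIF1, which guards start codon choice, fell by 0.34 (SE 0.08, adjusted p = 0.030). Its 7 probe sets were all lower but spread widely, from -0.85 to -0.02, and the brightest gene-specific one gave -0.02 (adjusted p = 0.91), the dimmer gene-specific one -0.32 without passing the test. EIF1B, a close copy of EIF1, changed by -0.26 (adjusted p = 0.098), and was called lower under reference gene scaling (-0.51, adjusted p = 0.011). EIF1AD, a protein with an eIF1A-like domain, changed by -0.05 and had the sign turned when probe sets were averaged (0.10).

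eIF3 is the largest of the factors, and on the deposited scale most of its genes did not pass the test. Of 13 subunits measured, EIF3B and EIF3I rose, EIF3A fell, and 10 did not pass the test. The called share of 23.1% is near the 24.0% of all genes, and 40.9% of genes above the median level passed. The median of -0.11 compares with -0.01 over all genes and became -0.36 under reference gene scaling. Under that scaling EIF3D, EIF3E, EIF3F, EIF3G, EIF3H, EIF3J, EIF3L and EIF3M were also called lower. Their changes ran from -0.47 (EIF3E) to -0.31 (EIF3G), and 43.0% of all genes passed there. How flat eIF3 appears thus depends on the scale. EIF3B, a scaffold of the core, was at 10.03 and 9.74 in control and 10.37 and 10.43 in knockout cells. Its rise of 0.52 (SE 0.12, adjusted p = 0.031, limma) was called again by 3 of its 5 other probe sets, while 1 dim probe set was lower (-0.15). EIF3I, a partner of EIF3B, rose by 0.33 (adjusted p = 0.036). Neither rise was called under reference gene scaling, where EIF3B was at 0.27 (adjusted p = 0.099) and EIF3I at 0.08 (adjusted p = 0.42). EIF3A, the largest subunit, fell by 0.35 (adjusted p = 0.047). That call was lost when EIF3A was read by a gene-specific probe set (-0.04, adjusted p = 0.81) or by all its probe sets averaged (-0.22, adjusted p = 0.089).

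Among the remaining subunits, EIF3E changed by -0.22, EIF3J by -0.20, EIF3M by -0.15, EIF3D by -0.14, EIF3F by -0.13, EIF3H by -0.11, EIF3L by -0.10 and EIF3G by -0.06. EIF3K was 0.13 higher, or -0.12 under reference gene scaling. Read by their brightest probe sets, these 9 subunits thus lay within 0.22 of no change on the deposited scale, and 8 of them were on the lower side. Their other probe sets did not all stay in that range. One of EIF3J fell by 0.43 (adjusted p = 0.036, limma over single probe sets), and a dim one of EIF3K rose by 0.45 (adjusted p = 0.028). Those of EIF3M are given under the other observations. EIF3C, a core subunit with a nearly identical copy, was read here only by 1 dim probe set (5.62, 4.68, 5.96 and 5.30 on the 4 arrays), and its difference of 0.48 (SE 0.36) was within the spread between arrays. Probe sets shared between EIF3C and that copy were not used.

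Among genes of eIF4F and its cofactors, EIF4E rose, EIF4B fell and 4 did not pass the test. EIF4E, the cap-binding subunit, was at 9.68 and 9.78 on the control arrays and 10.35 and 10.39 on the knockout arrays. Its rise of 0.64 (SE 0.08, adjusted p = 0.0055, limma), 1.56-fold, stood under reference gene scaling (0.39, adjusted p = 0.020). Of its other probe sets, one rose by 0.67, a bright one gave 0.44 without passing the test, and 2 dim ones gave 0.14 and -0.20. EIF4B, a cofactor of the helicase, fell by 0.29 with an adjusted p of 0.0497, at the threshold. The scaffold EIF4G1 was 0.23 higher, its relative EIF4G2, which lacks the eIF4E site, 0.06, and the helicase cofactor EIF4H 0.16. None of the 3 passed the test, and they were -0.02, -0.19 and -0.09 under reference gene scaling. EIF4A2 was read by 1 probe set near the bottom of the scale (2.93, 2.84, 2.60 and 2.67), where it is not known to exceed background, and changed by -0.25. The helicase EIF4A1 and the scaffold EIF4G3 were not analysed here. Over the 6 genes measured the median was 0.11, and -0.14 under reference gene scaling.

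The other cap-binding proteins went in opposite directions. EIF4E2, or 4EHP, which binds caps without recruiting eIF4G, was at 9.35 and 9.31 in control and 9.91 and 9.96 in knockout cells, a rise of 0.61 (SE 0.08, adjusted p = 0.0054, limma). Of its 4 probe sets 3 rose and the dimmest was 0.20 higher. EIF4E3, an atypical family member whose promoter with the ATF4 motif is printed above, was at 6.36 and 6.61 in control and 5.37 and 5.91 in knockout cells. Its fall of 0.84 (SE 0.20, adjusted p = 0.035), 1.79-fold, was also called for each of its 4 probe sets. The knockout arrays of EIF4E3 differed by over 0.5 from each other, and none of the 4 fits that leave out an array called it (adjusted p 0.063 to 0.18).

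EIF4EBP1, the best known of the proteins that hold eIF4E away from eIF4G and a recognised ATF4 target, showed the largest change of all 47 genes. It was at 10.83 and 10.70 on the control arrays and 9.52 and 9.85 on the knockout arrays. Both knockout arrays were below both controls by more than the difference within either group, and the fall was 1.08 (SE 0.13, 95% confidence interval -1.41 to -0.75, adjusted p = 0.0050, limma), or 2.11-fold. One probe set reads this gene. EIF4EBP2, a second binding protein, was 0.30 higher and did not pass the test (adjusted p = 0.066), with controls at 8.44 and 8.49 and knockouts at 8.69 and 8.84. Of its other probe sets 2 gene-specific ones did rise, by 0.84 and 0.71, and with the brighter of them in its place the gene was called (adjusted p = 0.0029). EIF4ENIF1, which carries eIF4E into the nucleus, changed by 0.04, or -0.21 under reference gene scaling, and its arrays overlapped.

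**Figure D3:**
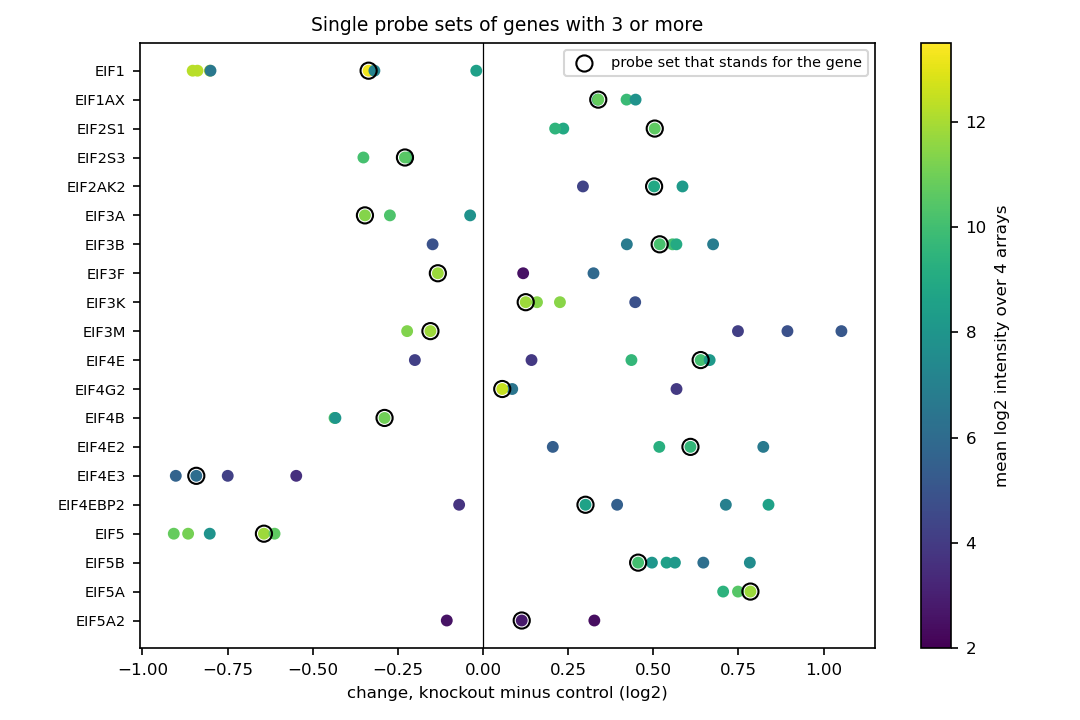
Change of every single probe set (points, knockout minus control, log2 intensity) for the initiation factor genes with 3 or more, coloured by mean log2 intensity over the 4 arrays, with a ring around the probe set that stands for the gene. EIF5, EIF5A, EIF5B and EIF4E3 keep 1 sign over all probe sets, whereas EIF3M and EIF4E hold both signs.

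Among 121 probe sets of the 47 genes, no gene had probe sets called in opposite directions. Of 17 called genes with several probe sets, 15 had all of them on the same side. The exceptions were EIF3B and EIF4E, each with 1 dim probe set on the other side. Over all 41091 probe sets listed with 1 gene, 18.4% were called. The probe sets that stand for EIF2AK2, EIF3B and EIF5B are of a type that can bind related transcripts. Among the called genes, EIF2B4 and EIF5A have no gene-specific probe set.

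At start codon recognition and subunit joining, EIF5 and EIF5B differed in direction. EIF5, which makes eIF2 hydrolyse its GTP, was at 12.17 and 12.06 in control and 11.46 and 11.48 in knockout cells. It fell by 0.64 (SE 0.08, adjusted p = 0.0056, limma), 1.56-fold, and all 5 of its probe sets fell, by 0.61 to 0.91. EIF5B, the GTPase of subunit joining, rose by 0.46 (SE 0.10, adjusted p = 0.027), and 5 of its 6 probe sets rose. EIF5B did not pass when read by a gene-specific one (0.50, adjusted p = 0.054) or when reference genes set the scale (0.21, adjusted p = 0.13).

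EIF5A, despite its name, acts mainly in elongation and termination and carries the modified residue hypusine. It was at 11.44 and 11.34 on the control arrays and 12.14 and 12.22 on the knockout arrays. Its rise of 0.79 (SE 0.08, adjusted p = 0.0034, limma), or 1.72-fold, was the largest rise of the 47 genes, and all 3 probe sets rose, by 0.71 to 0.79. None of these probe sets is gene-specific, so their agreement does not set EIF5A apart from related transcripts. EIF5AL1 was not analysed here. Under reference gene scaling the rise of EIF5A was 0.54 (adjusted p = 0.0070). EIF5A2, its relative, was read at 2.70, 2.72, 2.77 and 2.87 on the 4 arrays, near the bottom of the scale, and changed by 0.11, or -0.14 under reference gene scaling. EIF6, which keeps the large subunit from joining too early, was at 11.05 and 10.98 in control and 11.14 and 11.24 in knockout cells, a change of 0.17 (SE 0.08). EIF4A3, the helicase of the exon junction complex, was at 10.69 and 10.66 against 10.79 and 10.83, a change of 0.14 (SE 0.08). The arrays of both genes were apart, yet neither passed the test (adjusted p = 0.22 and 0.29, limma), and both turned negative under reference gene scaling (-0.08 and -0.11).

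**Figure D4:**
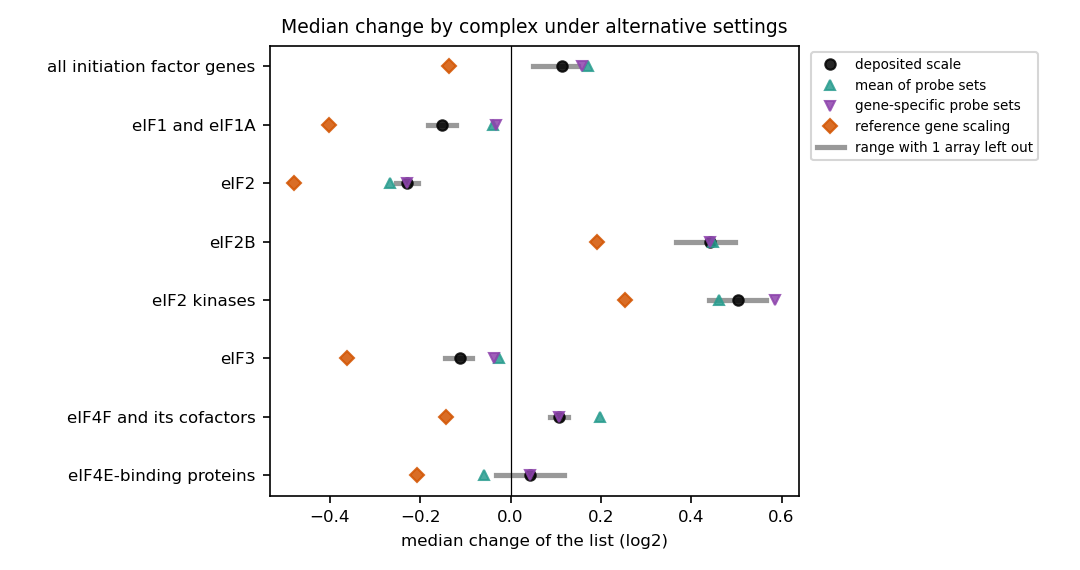
Median change (knockout minus control, log2 intensity) of all 47 initiation factor genes and of the 7 lists with at least 3 genes, on the deposited scale and under 3 alternatives, with the range over the 4 fits that each leave out 1 array. The medians of eIF2B and of the eIF2 kinases stay above 0 under reference gene scaling (0.19 and 0.25), while those of all genes together, eIF4F and the eIF4E-binding proteins turn negative.

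Other genes of translation were read for comparison. Of 43 genes, 8 rose and 5 fell, 30.2% together against the 24.0% of all genes. Most of the 43 were bright, and of the genes above the median level 40.9% passed, a larger share. Of 5 regulators of eIF2 phosphorylation 3 fell. PPP1R15A (GADD34), the stress-induced subunit that directs a phosphatase to eIF2, was at 11.07 and 10.83 in control and 8.79 and 9.10 in knockout cells. It fell by 2.00 (SE 0.14, adjusted p = 0.0013, limma), 4.01-fold, and kept its call with any 1 array left out. PPP1R15B, the constitutive subunit, fell by 0.59 (adjusted p = 0.0057). IMPACT, an inhibitor of GCN2 activation, fell by 0.47, while GCN1 (0.32) and NCK1 (0.32) did not pass the test.

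MKNK2, a kinase that phosphorylates eIF4E, went from 11.90 and 11.87 to 10.80 and 10.66. Its fall of 1.15 (SE 0.09, adjusted p = 0.0015, limma), 2.23-fold, was called with any 1 array left out, whereas the related MKNK1 changed by 0.16. RPS6KB2, an S6 kinase, rose by 0.52 (adjusted p = 0.034), or 0.27 and not called under reference gene scaling (adjusted p = 0.11), and 10 of the 12 kinases and repressors acting on eIF4 did not pass. Of 7 start-site helpers 4 rose: BZW2, a mimic of eIF5, by 0.82 (adjusted p = 0.0033), MCTS1 by 0.64, the recycling factor ABCE1 by 0.62 and the helicase DHX29 by 0.50. For MCTS1, averaging the 3 probe sets gave 0.20 (adjusted p = 0.18), and under reference gene scaling DHX29 was at 0.25 (adjusted p = 0.057). None of the 4 poly(A)-binding proteins and partners and neither enzyme of hypusine synthesis, DHPS (-0.08) and DOHH (0.25), passed the test in limma; PAIP2B, a repressor of poly(A)-binding protein, had an unadjusted p under 0.05 (1 of 4), and neither hypusine enzyme did (0 of 2). The list of 13 genes of elongation and release also holds the kinase EEF2K and the mitochondrial initiation factors MTIF2 and MTIF3. In it the mitochondrial elongation factors TUFM (0.51) and TSFM (0.40) and the release factor GSPT1 (0.33) rose, and EEF2 fell by 0.39. The 3 rises were not called under reference gene scaling, with TUFM at 0.26 (adjusted p = 0.060), TSFM at 0.15 (adjusted p = 0.15) and GSPT1 at 0.08 (adjusted p = 0.42). Averaged probe sets did not call TSFM (0.29, adjusted p = 0.070) or GSPT1 (0.21, adjusted p = 0.23), and a gene-specific probe set of GSPT1 gave 0.14 (adjusted p = 0.34).

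**Figure D5:**
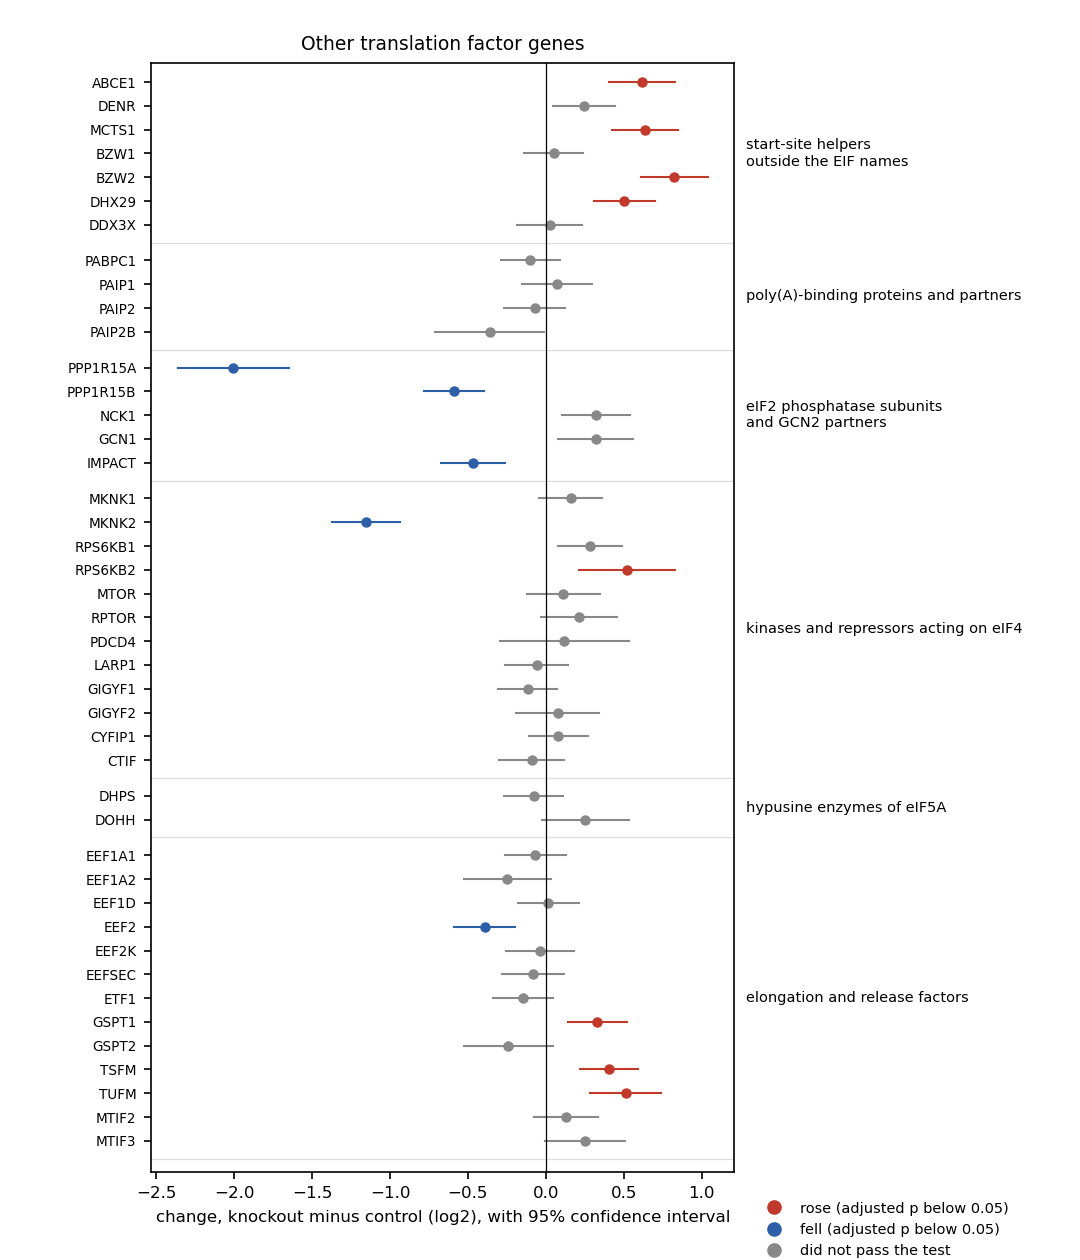
Change of 43 other translation factor genes (points, knockout minus control, log2 intensity) with 95% confidence intervals (lines), grouped by role, n = 2 arrays per group. PPP1R15A at -2.00 and MKNK2 at -1.15 lie farthest to the left, and BZW2 at 0.82 farthest to the right.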

How the data were processed

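Total RNA of 4 AGS samples was labelled from the 3′ end of transcripts and hybridised to expression arrays, 1 sample per array. The authors deposited log2 intensities of 54613 probe sets; per the submitters' processing notes they were made with RMA in affy, whose version is not given in the sources used here. RMA quantile-normalizes the arrays, so differences are relative to other transcripts, and differences of dim probe sets are compressed. Array medians were 5.01 to 5.02. Detection calls were not used here, so whether a dim level exceeds background is unknown. Precision is limited by having 2 arrays per group.

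Probe sets with 1 gene symbol (41091) were named through Entrez numbers with the RefSeq table of GRCh38.p14 (41037 matched), and each of 19775 genes was read by its brightest probe set. The groups were fitted in R 4.3.3 by limma 3.58.1 (lmFit and eBayes, 2 residual and 3.27 prior degrees of freedom), with Benjamini-Hochberg adjustment over all genes and a threshold of 0.05. On simulated data from these 19775 genes, 4.41% of changes of 0.5, 81.8% of changes of 1 and 98.5% of changes of 2 were called, and 10 unchanged genes were called. Far fewer genes were changed there than passed in the real data. Lists are described by counts and medians, with no test. Promoter sequences are from RefSeq (GRCh38.p14) and the guide from the labels.

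The genes, lists and tests were chosen with earlier results of these data known. Every gene is named. Values on each array are given for called genes with a change of at least 0.5 and for the gene with the largest change in each complex (among called genes where there are any), and for others chosen after their values were seen. Other translation genes are named if called with a change of at least 0.5; the rest were named after their values were seen. Alternatives were other choices of probe set, only brighter genes, an intensity trend, 2 scalings, a replicate block and leaving out each array. Genes without a gene-specific probe set kept their brightest one in that alternative.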

Additional observations from a re-analysis of the deposited data

How the results depend on the processing

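Counts of calls depended on the setting. With the mean of probe sets 16 initiation factor genes rose and 8 fell, with gene-specific probe sets 14 and 4, with an intensity trend 19 and 13, with reference gene scaling 5 and 20, and with equal medians 16 and 6. With 1 array left out, 0 to 9 rose and 0 to 3 fell. Same-numbered arrays share only a number (their deviations from the group means correlated at r = 0.05 over genes), and with that number as a replicate block 12 rose and 4 fell. Of the other translation genes, 13 rose and 5 fell with only genes above the median level tested, where 56.3% of those genes passed. Under reference gene scaling 3 rose and 18 fell, where 43.0% of all genes passed and the median of all genes was -0.26. PRMT6 (-0.36) lost its call with gene-specific probe sets (adjusted p = 0.052, limma, as for the next values). It has 1 probe set, so there only the readings of other genes had changed. PRMT6 also lost its call with equal medians (-0.31, adjusted p = 0.065), with the replicate block (-0.36, adjusted p = 0.076) and with 1 array left out (-0.44 to -0.28).

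Medians moved by more than the spread between arrays as follows. With the mean of probe sets they were 0.17 for all 47 genes, -0.038 for eIF1 and eIF1A, -0.27 for eIF2, 0.46 for the eIF2 kinases, -0.026 for eIF3, 0.20 for eIF4F and -0.058 for the eIF4E-binding proteins. With gene-specific probe sets they were 0.16 for all, -0.033 for eIF1 and eIF1A, 0.59 for the kinases and -0.038 for eIF3. Reference gene scaling gave -0.14 for all, -0.40 for eIF1 and eIF1A, -0.48 for eIF2, 0.19 for eIF2B, 0.25 for the kinases, -0.36 for eIF3, -0.14 for eIF4F and -0.21 for the binding proteins. Equal medians gave 0.17 for all, -0.18 for eIF2, 0.55 for the kinases, -0.059 for eIF3 and 0.16 for eIF4F, which was 0.16 with only genes above the median level. With 1 array left out medians ran from 0.0497 to 0.15 for all, from 0.37 to 0.50 for eIF2B, from 0.44 to 0.57 for the kinases, from -0.15 to -0.0861 for eIF3 and from 0.0865 to 0.13 for eIF4F.

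No called initiation factor gene changed sign under any alternative. Genes that had not passed did: with the mean of probe sets EIF1AD (0.10), EIF3F (0.10), EIF3M (0.46, adjusted p = 0.017) and EIF4ENIF1 (-0.058), and with gene-specific probe sets EIF3E (0.16), EIF3F (0.32) and EIF5A2 (-0.11). Under reference gene scaling so did EIF2AK1 (-0.18), EIF2D (-0.027), EIF3K (-0.12), EIF4A3 (-0.11), EIF4ENIF1 (-0.21), EIF4G1 (-0.021), EIF4G2 (-0.19), EIF4H (-0.093), EIF5A2 (-0.14) and EIF6 (-0.079), with equal medians EIF1AD (0.0056), and with 1 array left out EIF3G (-0.15 to 0.0196) and EIF4ENIF1 (-0.0325 to 0.1178). For EIF3M the averaging itself brings in 3 dim probe sets that rose. Elsewhere the cause was not tested. The 2 arrays per group limit every call.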

Other observations

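EIF3M, a subunit of eIF3, holds probe sets that disagree. The bright pair gave -0.15 and -0.22 and did not pass the test, with means of 11.84 and 11.33. Its 3 dim probe sets, with means of 5.13, 4.83 and 4.15, rose by 1.05, 0.89 and 0.75 (adjusted p = 0.012, 0.030 and 0.041, limma over single probe sets). On the brightest of these the control arrays were at 4.83 and 4.37 and the knockout arrays at 5.64 and 5.66.

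EIF1 shows the same kind of spread in size but not in sign. Of its 7 probe sets, 4 that can bind related transcripts fell by 0.80 to 0.85, the brightest fell by 0.34, and the 2 gene-specific ones did not pass the test. Of these, the one with a mean of 8.50 was at 8.52 and 8.50 in control and 8.49 and 8.49 in knockout cells. The other was at 7.27 and 7.36 against 7.00 and 6.99, lower without overlap (-0.32, adjusted p = 0.063, limma). Also read were 2 non-coding RNA genes named after initiation factors, EIF1B-AS1 (0.25, adjusted p = 0.080) and EIF3J-DT (0.07, adjusted p = 0.58). Neither passed the test in limma.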
